A study of Drosophila melanogaster with 14 samples.

Results

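The piRNAs of 1 repeat of the Drosophila melanogaster genome, led by the entry dme_piR_001031, were described in heads of tau transgenic and control flies. They were chosen by position: entries of the piRNA table with at least 5 genome locations of which at least 50% started within 7 kb of a location of dme_piR_001031 on the same chromosome arm. The rule found 73 of 3326 entries, and of 2317 entries with at least 5 locations. Heads came from flies with a tau transgene (tau is a microtubule-binding protein that aggregates in human neurodegenerative disease) or from flies that the labels call wild type. Small RNA was sequenced in 4 control and 4 tau libraries, independent biological replicates made from total RNA of pooled heads of flies kept at a constant temperature with a light and dark cycle. The sources used here do not state the promoter that drives the transgene, the form of tau, the ages or the sexes. The table used here holds no messenger RNA, so the tissue label was not checked against marker genes.

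Small RNAs of the piRNA class guide Piwi-family proteins to transcripts of transposable elements and to the loci that encode them. Most begin with U (T in the deposited sequences), and their length exceeds that of microRNAs. Many are cut from long transcripts of piRNA clusters, which hold fragments of transposable elements, and a smaller part arises when a piRNA-guided cut on 1 strand sets the 5′ end of a piRNA on the other strand. In that ping-pong cycle, the partners overlap by 10 nt from their 5′ ends, and the partner of a piRNA that begins with U carries an A at its base 10. The pathway is best known from the fly gonad.

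The 28 locations of dme_piR_001031 marked 28 copies of the repeat, 11 on arm 2L, 4 on 2R, 5 on 3L, 4 on 3R and 4 on X, with 14 on each strand of the genome. The closest pair of copies on an arm lay 79406 nt apart. Of 2057 locations of the 73 entries, 2054 lay within 7 kb of a copy, and no entry had a location on chromosome 4. The group had a sharp edge: dme_piR_005045, with the lowest share inside the rule, had 96.6% of its 29 locations near a copy, and the nearest entry outside it, dme_piR_019658, had 20% of 5. Between 61 and 73 of the entries were found at each copy (median 70), and 4 copies held all 73. The sources used here do not name the genome build of the locations.

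The copies shared 1 layout. With the 5′ end of dme_piR_001031 as position 0 and its strand as the reading direction, the most frequent start of each entry lay between positions -824 and 3942. Each entry had the same strand relative to dme_piR_001031 at each of the 28 copies. All 21 entries from position -446 to position 286, dme_piR_001031 included, kept 1 exact distance at all their locations, and no entry outside that stretch did. Further out most copies differed by a few nt, and in 25 of 28 copies the most frequent displacement of entries from position 2000 on was at most 5 nt. The exceptions were the copy at 3L:12932724-12932749, displaced by -696 nt, and the copies at 2L:20159238-20159263 and 3L:3589177-3589202, each displaced by 108 nt. The most frequent displacement did not always hold to the end of a copy. At X:13868311-13868336, counted among the 25, the last start of any entry lay at position 3537, against 4150 to 4162 at the rest of the 25. At 2L:20159238-20159263 it lay at 5865. These coordinates are those of dme_piR_001031 within the copy, as the file gives them.

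Terminal and internal duplications were visible in the number of locations. The entries dme_piR_015625, with 50 locations, and dme_piR_014264, with 58, occurred near both ends of a copy on the same strand, the former at 24 copies. For dme_piR_014264 the pair was present at all 28 copies, with a median spacing of 4870 nt (4148 to 6581 nt), and in 23 copies the spacing was 4865 to 4875 nt. A sequence repeated in the same direction at both ends is the layout of LTR retrotransposons, which move through an RNA copy. No source used here ties these locations to a named transposable element, so no family is named. A shorter tandem unit lay inside: dme_piR_013118 occurred at positions 1393 and 1501, 108 nt apart, on 25 copies, 3 times on the 2 copies displaced by 108 nt, and not at all on the copy displaced by -696 nt.

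Most entries were common to nearly all copies, and 3 were not. Of the 73 entries, 66 had 24 to 29 locations, and 33 had exactly 28. The entries dme_piR_017099 (position 1880), dme_piR_009783 (position 1920) and dme_piR_002328 (position 1925) had 14 locations each, at the same 14 copies. Of those 14 copies, 7 lay on 2L, 3 on 2R, 1 on 3L, 2 on 3R and 1 on X. The 3 entries overlap each other, so they mark 1 stretch whose exact letters were located at 14 copies and not at the other 14.

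The entries had the length and first base of piRNAs. That is no result of these libraries, since reads were selected against a reference of known piRNAs (piRNABank). They were 22 to 31 nt long with a median of 25 nt, and 40 of them were 25 or 26 nt (20 each). A first base of T was found in 57 of 73 (78.1%), C in 10, A in 5 and G in 1. Among the 2201 other entries with at least 5 locations on at least 2 arms, called other repeat entries below, 71.6% began with T and 77.6% were 25 nt or longer, against 76.7% of the 73. An A at base 10 was present in 35 of 73 entries (47.9%) and in 33.9% of other repeat entries. Of the 57 entries that began with T 25 had it, and of the 16 others 10 did. Bases G and C made up 39.3% of the sequences on average, against 43.9% in other repeat entries. These shares describe the entries that were listed, whatever their counts, and their differences were not tested.

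Both strands of the repeat gave rise to entries. Relative to dme_piR_001031, 28 entries lay on the same strand and held 395 counts, and 45 lay on the opposite strand and held 482 counts. T was the first base of 71.4% of the former and 82.2% of the latter. Entries were spread along the whole repeat: 20 began upstream of position 0, 13 from 0 to 999, 14 from 1000 to 1999, 15 from 2000 to 2999 and 11 from 3000 on. A dense run on the opposite strand lay from position -378 to -363, where dme_piR_008178, dme_piR_011759, dme_piR_015601 and dme_piR_006974 began within 15 nt of each other. On the facing strand dme_piR_020436 and dme_piR_021592 began at positions -368 and -366.

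Of all pairs of entries on opposite strands, 2 overlapped by exactly 10 nt from their 5′ ends. The first was dme_piR_009937 and dme_piR_018950, at positions 864 and 873, facing each other on 27 copies. Both begin with T and carry A at base 10. The second was dme_piR_019265 and dme_piR_016425, at positions -11 and -2, on 28 copies. There dme_piR_019265 begins with T and dme_piR_016425 has an A at base 10. In both pairs the first 10 bases of the partners were complementary. Overlaps of 2, 4, 6 and 16 nt were formed by 3, 2, 1 and 1 pairs, and no other overlap up to 25 nt occurred, so an overlap of 2 nt was more frequent than that of 10 nt. The counts behind these pairs were few: 8 and 25 for the first and 7 and 9 for the second, over the 8 libraries. All overlaps are between the ends of listed entries, and the ends of reads were not measured.

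The level of these piRNAs was low in every library. Together the 73 entries held 877 counts, with a median of 8 per entry, 47 entries at 10 or fewer and 11 above 20. The smallest total of a listed entry was 3, for the table and for the group, so entries below that are not seen. Library totals of the table ran from 2826791 to 3859061 counts, and the entries made up 0.000906% to 0.00937% of them. All repeat entries, the 73 included, held 7233 to 10337 counts per library, also a small part of these totals. Of the 73 entries, 34, 40, 19 and 18 had at least 1 count in control 1 to 4, and 62, 48, 39 and 58 in tau 1 to 4. An entry with 0 counts is therefore not shown to be absent, since 3 counts, the upper limit a count of 0 allows, correspond to 0.777 to 1.06 CPM (counts per 1000000 counts of a library's total).

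Summed over the 73 entries, counts were 73, 84, 26 and 33 in control 1 to 4 and 272, 137, 86 and 166 in tau 1 to 4. In CPM with TMM factors, which adjust each library for its composition and are used from here on, the sums were 27.0, 26.3, 9.48 and 11.2 in control and 69.4, 35.3, 32.0 and 48.1 in tau. Each tau library was above each control library, and control 3 and 4 were the lowest of the 8. Control libraries had a mean of 18.5 ± 9.45 CPM (SD, n = 4) and tau libraries one of 46.2 ± 16.9 (SD, n = 4), a ratio of 2.50. The pooled ratio, that of counts summed over each genotype (216 in control and 661 in tau) and divided by the scaled library sizes, was 2.55 with a 95% counting interval of 2.18 to 2.98, which does not cover the spread between libraries. No test was made of this sum, because the entries were singled out with results of these libraries known. In whole heads, a change in the cells present and a change in RNA per cell cannot be told apart.

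The library tau 1 stood highest. Without it the ratio was 1.79, and the lowest tau library (28.2 CPM, rescaled without tau 1) was below the highest control library (29.3 CPM). In tau 1 the entries with at least 5 locations that all lie on 1 arm held 7.22% of the counts, against 0.665% to 3.63% in the other libraries. In 31 of the 73 entries tau 1 had more counts than each other tau library, and in 11 it was level with the highest of them. The part of these differences between libraries in the sum was not tested. Without control 3 the ratio was 2.13, and without control 1 it was 2.96.

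Set against reads of other repeats in the same library, the difference was in the same direction. The 73 entries held 0.706%, 0.990%, 0.344% and 0.440% of all repeat entry counts in control 1 to 4 and 3.38%, 1.36%, 1.19% and 1.88% in tau 1 to 4. Counting error alone gave 95% intervals (Wilson) of 0.80% to 1.22% for control 2, the highest control, and 0.964% to 1.47% for tau 3, the lowest tau library, and these intervals overlapped. The other repeat entries summed to 2926 ± 590 CPM in control (SD, n = 4) and 2428 ± 305 CPM in tau (SD, n = 4), a ratio of 0.830. Repeats delimited by the same rule around other entries gave lower ratios: 0.355 for dme_piR_004641, 0.679 for dme_piR_013953 and 0.253 for dme_piR_002840. The ratio was 0.988 for dme_piR_009604, 1.02 for dme_piR_017223, 1.03 for dme_piR_004297 and 0.977 for dme_piR_001190. The differences between these repeats were not tested.

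The higher level in tau was shared by most entries. The mean level was higher in tau for 67 of 73 entries (91.8%), where 52.9% of all 3326 entries and 49.3% of the 2201 other repeat entries had a higher mean in tau. Of the 67, 16 had 0 counts in all control libraries. The smallest total of a listed entry was 3, so these 16 are listed through tau counts alone. Their direction was fixed in advance, and they also enter the median log2 ratio given next. The median log2 ratio of mean levels, with 0.1 CPM added to each, was 1.15 (quartiles 0.46 and 1.69) for the 73 entries, -0.02 for other repeat entries and 0.11 for all entries. Entries of 1 repeat come from the same libraries and possibly the same precursors, so they are not independent observations. The exceptions, with counts summed over libraries, were dme_piR_004642 (10 counts in control and 7 in tau), dme_piR_009783 (5 and 5), dme_piR_009887 (5 and 4), dme_piR_019265 (5 and 2), dme_piR_013118 (3 and 2) and dme_piR_007646 (3 and 0). Without the 5 most counted entries, which held 246 counts (28.1%), the sum was still 13.7 ± 5.69 CPM in control (SD, n = 4) and 32.9 ± 11.5 in tau (SD, n = 4), a ratio of 2.39.

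On both strands and in each stretch of the repeat the sum had a higher mean in tau. Entries on the strand of dme_piR_001031 summed to 30, 34, 10 and 15 counts in control and to 128, 72, 43 and 63 in tau, a ratio of 2.81 in mean CPM. Those on the opposite strand summed to 43, 50, 16 and 18 in control and to 144, 65, 43 and 103 in tau, a ratio of 2.28. On both strands the lowest tau library was above the highest control library in CPM, by a narrow margin on the opposite strand (16.0 against 15.9). By position the ratios were 2.44 upstream of 0, 2.45 from 0 to 999, 2.82 from 1000 to 1999, 2.52 from 2000 to 2999 and 2.36 from 3000 on. Their 95% counting intervals overlapped, and the interval of the last stretch, with 22 counts in control and 65 in tau, was 1.5 to 4.19. In that last stretch the genotypes overlapped in CPM, with 3.70 in control 1 above tau 2 and tau 3, and in the other 4 they did not. Higher values were found for 25 of 28 entries on the strand of dme_piR_001031 and for 42 of 45 on the other. The 16 entries at 0 in control are among these.

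Weighted by counts, the length and first base of the entries differed between genotypes by less than the spread between libraries. These are traits of the listed sequences, and the length and first base of the reads themselves were not measured. Reads assigned to entries beginning with T made up 75.3%, 79.8%, 61.5% and 63.6% of the group's counts in control 1 to 4 and 75%, 65.0%, 69.8% and 80.7% in tau 1 to 4. Entries of 25 nt or longer held 86.6% ± 8.09 in control (SD, n = 4) and 86.7% ± 4.34 in tau (SD, n = 4), and on average 82.4% and 83.2% of the counts of other repeat entries. The mean length weighted by counts was 26.2 nt in both (SD 0.388 in control and 0.126 in tau). The share of the opposite strand was 58.6% ± 2.94 in control and 53.1% ± 6.37 in tau, and that of entries with A at base 10 was 47.8% ± 10.4 and 51.0% ± 1.69. With as few as 26 counts in a library, these shares have wide counting errors.

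None of the 73 entries passed the default filter of the test across the table. In edgeR's quasi-likelihood test with the default filter on low counts, 249 entries were tested, of which 6 were higher in tau (2.41%) and 26 lower (10.4%), and 0 of the 73 were among the 249. The filter asks for 3.23 CPM, before TMM scaling, in 4 libraries, and dme_piR_001031 reached it in tau 1 (6.54) but not in tau 2 (3.11), tau 3 (3.18) or tau 4 (2.99). With no filter all 73 were tested and 1 was called, dme_piR_002328 as higher in tau (adjusted p = 0.0384), where 0.722% of the 3326 entries were called higher and 2.98% lower (3.7% in either direction). In that fit 12 of the 73 had an unadjusted p under 0.05, where 14.1% of all entries did. With DESeq2, 17 of the 73 received an adjusted p and 0 passed, where 0.751% of 1198 entries were called higher and 4.92% lower (5.68% in either direction). The smallest adjusted p of the 17 was 0.149, and 4 of the 73 had an unadjusted p under 0.05, where 5.86% of all entries did. The authors' deposited table lists a log2 fold change above 0 for 67 of the 73, an adjusted p for 16 of them and none under 0.05, with a smallest of 0.169. Of its 1044 entries with an adjusted p, 0.766% were higher and 8.14% lower.

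Groups did not overlap for 4 of the 73 entries, dme_piR_018181, dme_piR_006135, dme_piR_002328 and dme_piR_008178, each with all tau libraries above all control libraries in CPM. That is 5.48%, where 2.29% of all entries and 2.27% of other repeat entries did so. The reverse, all tau libraries below all control libraries, was found for 0 of the 73, for 5.35% of all entries and for 6.68% of other repeat entries. Of the 4, dme_piR_008178 had 0 counts in control and 3, 3, 1 and 1 in tau, a level 2.22 times that of a floor of 3 counts over the control group. The counting error of the tau counts is not part of that value.

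The entry with the most counts, dme_piR_001031 itself (26 nt, first base T, 28 locations), had 8, 3, 0 and 0 counts in control 1 to 4 and 19, 12, 9 and 10 in tau 1 to 4. All 4 tau libraries had more counts than any control library, with 9 in tau 3 against 8 in control 1, but in CPM the groups overlapped. Its mean was 0.975 ± 1.40 CPM in control (SD, n = 4) and 3.55 ± 0.885 in tau (SD, n = 4), and the pooled ratio was 3.78 (95% counting interval 1.94 to 8.06). The edgeR fit with no filter gave a log2 fold change of 2.03 ± 0.667 SE (adjusted p = 0.0587), and the authors' deposited table lists 1.63 with an adjusted p of 0.222. Without control 1, which held 8 of its 11 control counts, the log2 ratio of mean levels went from 1.86 to 3.51.

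On the same strand, dme_piR_018181 (29 nt, first base A, A at base 10, position 2004) had 4, 3, 1 and 2 counts in control and 12, 12, 5 and 10 in tau. It had at least 1 count in each of the 8 libraries, and its groups did not overlap. Its pooled ratio was 3.24 (1.59 to 7.29), with a log2 fold change of 1.75 ± 0.702 SE and an adjusted p of 0.185 in edgeR with no filter. The entry dme_piR_002749 (27 nt, first base T, position 2305) had 3, 3, 0 and 0 counts in control and 21, 4, 1 and 11 in tau, with a pooled ratio of 5.13 (2.15 to 14.9) and an adjusted p of 0.0543 in edgeR with no filter. Here the 21 counts of tau 1 were the highest of any entry in any library, and tau 3 with 1 count was below 2 control libraries. The entry dme_piR_021592 (25 nt, first base A, position -366) had 2, 3, 1 and 4 counts in control and 8, 6, 0 and 1 in tau, a pooled ratio of 1.25 (0.524 to 3.11) whose interval includes 1. For dme_piR_010191 (position 128) the counts were 1, 3, 0 and 2 against 10, 4, 1 and 2, and for dme_piR_014544 (position -235) they were 2, 0, 0 and 3 against 4, 6, 3 and 2.

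On the opposite strand, dme_piR_022092, the longest of the 73 with 31 nt (first base T, position 2775), had 8, 8, 1 and 2 counts in control and 13, 4, 4 and 12 in tau. It was present in all 8 libraries, its groups overlapped, and its pooled ratio of 1.45 had an interval of 0.798 to 2.69. The entry dme_piR_006135 (26 nt, first base T, A at base 10, position -204) had 3, 4, 2 and 0 counts in control and 15, 5, 4 and 8 in tau. Its groups did not overlap in CPM, and its pooled ratio was 2.96 (1.38 to 7.05), with an adjusted p of 0.277 in edgeR with no filter. For dme_piR_016961 (first base A, position 998) the counts were 3, 2, 0 and 4 against 7, 6, 1 and 4, and for dme_piR_018950 (first base T, position 873) they were 3, 6, 1 and 0 against 8, 5, 1 and 1. Both of these overlapped between genotypes. The entry dme_piR_005223, the only one of the 73 that begins with G (position 2320), had 2, 1, 1 and 1 counts in control and 9, 4, 3 and 2 in tau, a pooled ratio of 3.00 (1.07 to 10.3). Its adjusted p in edgeR with no filter was 0.368. The entry dme_piR_004642 (first base C, position 3729) went the other way, with 5, 1, 3 and 1 counts in control and 2, 1, 0 and 4 in tau, a pooled ratio of 0.582 (0.188 to 1.69).

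Among the entries present in 14 copies, dme_piR_002328 (28 nt, first base T) had 0 counts in each control library and 4, 3, 3 and 4 in tau. Its level in tau was 3.88 times the same floor for control. That value allows for counting error in the 0 of control and not in the tau counts, so it is no lower limit. In control 1 to 4, dme_piR_017099, which faces it on the other strand, had 0, 2, 0 and 0 counts, and in tau 1 to 4 it had 3, 2, 4 and 1, a pooled ratio of 4.16 (0.887 to 39.0). The third, dme_piR_009783, begins 5 nt from dme_piR_002328 on the same strand and had 2, 0, 1 and 2 counts in control and 0, 0, 1 and 4 in tau. The 5′ ends of dme_piR_009783 and dme_piR_002328 differ by 5 nt, and how reads were assigned between such entries is not given. The 0 of dme_piR_002328 in control therefore holds for that entry and not for the stretch. Control 1, 3 and 4 had counts of dme_piR_009783, and control 2 had counts only of dme_piR_017099, on the other strand. Summed, the 3 entries had 2, 2, 1 and 2 counts in control and 7, 5, 8 and 9 in tau, a pooled ratio of 3.45 (1.48 to 9.32).

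The entries that lie in duplicated parts of the repeat were no exception in direction, apart from dme_piR_013118. The terminal entry dme_piR_015625 (27 nt, first base C) had 1, 3, 1 and 0 counts in control and 7, 4, 5 and 2 in tau, with a pooled ratio of 3.00 (1.07 to 10.3). Its adjusted p in edgeR with no filter was 0.368. Its groups overlapped in CPM. The 4 entries with 50 or more locations together had 2, 6, 1 and 0 counts in control and 11, 10, 5 and 5 in tau, and control 2 lay above tau 3 and tau 4 in counts.

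The remaining named entries were less counted. In all, 26 entries were named by level, with 10 to 61 counts each and 602 of the 877 counts together, and 24 of them had a higher mean in tau. For dme_piR_005827 (position 2159) counts were 0, 2, 0 and 0 in control and 3, 3, 1 and 5 in tau, a pooled ratio of 4.99 (1.11 to 45.9). Here too the intervals cover counting error only and not the spread between libraries. For dme_piR_015720 (position 1197) they were 1, 0, 0 and 0 against 3, 1, 3 and 5, a pooled ratio of 9.98 (1.48 to 427). For dme_piR_014731 (23 nt, position -418) they were 1, 0, 0 and 0 against 6, 0, 0 and 5, and 2 of the 4 tau libraries had no read. Its pooled ratio was 9.15 (1.33 to 394). In edgeR with no filter the adjusted p was 0.36 for dme_piR_005827, 0.25 for dme_piR_015720 and 0.313 for dme_piR_014731. No count of dme_piR_020233 (first base A, position 3436) was found in control, and tau 1 to 4 had 6, 0, 3 and 2, which is 3.05 times the same floor. For dme_piR_006558, dme_piR_013350, dme_piR_002810, dme_piR_021084, dme_piR_006400 and dme_piR_011303 the pooled ratios ran from 1.07 to 3.74, and each interval included 1.

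Over the whole group, 16 entries had 0 counts in all control libraries and 1, dme_piR_007646, had 0 counts in all tau libraries. At least 1 count in all 4 libraries of a genotype was found for 22 entries in tau and for 9 in control. Both numbers rise with the number of reads, so they repeat the difference in the sum and are no separate measurement of it. The same shares over all entries of the table are not given here. None of these numbers, those of entries at 0 included, is therefore read as particular to the group. The highest count of any entry was 8 in a control library and 21 in a tau library.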

How the data were processed

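Small RNA libraries of 4 control and 4 tau samples were used. Reads had been selected by the authors with sortmerna, using piRNABank as reference, as the design text says. Trimmomatic 0.36 and DESeq2 1.14.1 are named, per the submitters' processing notes. The deposited counts are raw reads per entry and library. The authors' deposited table also holds a normalised mean (a signal), log2 fold changes, a test score, p-values with adjusted p-values, and a ratio of summed counts. Read assignment between overlapping entries is not given in the sources used here.

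The 2 rows without an entry name were empty and were left out. The test of counts was that of edgeR 4.0.16 (quasi-likelihood, TMM, default filter at a minimum count of 10, Benjamini-Hochberg over all entries tested, threshold 0.05, two-sided) in R 4.3.3, with DESeq2 1.42.0 as alternative. Both were run on simulated data, edgeR with the default filter only. The edgeR fit with no filter was not tried on simulated data. CPM, counts per 1000000 counts of the table, were computed here. Counting intervals are exact binomial unless named Wilson (scipy 1.17.1), and they cover counting error only, since the sources used here name no molecular identifiers. Floors cover only the counting error of the group at 0, with the counts of the other group taken as exact. Positions are most frequent 5′ offsets from dme_piR_001031. Named entries were dme_piR_001031, any past the threshold, and the next 25 by mean CPM, and entries singled out for an overlap, a location number or a direction were chosen after their values were seen. The members and lists were chosen with earlier results of these data known. Sequences of the entries are not reported here. The total RNA table was not used, because no source used here ties the locations to an insertion.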

Additional observations from a re-analysis of the deposited data

Results flagged for a closer look

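In 1 of 16 groups of 4 libraries looked at, 1 library lay far from the others of its genotype. Entries of the group on the strand of dme_piR_001031 summed to 32.6 CPM in tau 1, against 18.5, 16.0 and 18.3 in tau 2, tau 3 and tau 4. Chance puts about 1 in 20 such groups over this limit. The 16 groups share libraries, so they are not independent of each other. On the opposite strand tau 1 was also the highest (36.7 CPM), next to 29.9 in tau 4.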

How the results depend on the processing

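The sum over the 73 entries was higher in tau under each scaling and with each library left out. Its log2 ratio of mean CPM was 1.32, and 1.28 with RLE factors, 1.60 with library totals, 1.66 with repeat entries as library size, 1.34 without the 10 most counted entries in the library size and 1.37 with the authors' size factors. With 1 library left out it ran from 0.84 (without tau 1) to 1.57. With control 1 and tau 1 left out together it was 1.21. The authors' size factors and this last setting were chosen after seeing the data. Genotypes overlapped in the sum without the 10 most counted entries in the library size, and without control 2, tau 1 or tau 4. The log2 ratio of dme_piR_001031 ran from 1.39 to 3.51 with 1 library left out. The median log2 fold change of the entries tested was 0.06, and 0.27 with library totals. With the rule set to 5 kb, 10 kb, 0.8 of locations or 10 locations the same number of entries, 73, was found.

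Across the table, 6 entries were higher and 26 lower, with 4 to 9 and 26 to 46 when 1 library was left out (46 lower without tau 1, 40 without tau 3). DESeq2 called 59 lower. With no filter 24 were higher and 99 lower, and 1 of the 73 entries was called in place of 0. Without control 1 and tau 1 together 3 were higher. With the replicate block 3 were higher and 20 lower. Nothing in the labels ties same-numbered libraries. Correlations of the deviations of same-numbered libraries were -0.37, -0.37, 0.29 and 0.11, and 2 of 8 libraries correlated best with their own number. With 4 libraries per genotype these values cannot exclude that same-numbered libraries were prepared together. Differences between genotypes in the share of first base T (2.54 points) ran from -0.30 to 5.77, and in entries of 25 nt or longer (0.023 points) from -2.60 to 2.89, with 1 library left out. The cause was not tested. The test of a transposable element family was not run, since no source used here names one. Depth limits single entries: their median was 8 counts over the 8 libraries, and 0 of the 73 passed the default filter on low counts.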
